A study of Mus musculus with 12 samples.

Results

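CD8+ cells without surface asialo-GM1 (asGM1, a glycosphingolipid) were sorted from mouse tumours that expressed Flt3L and compared with the same gate from tumours of the parental line. The comparison holds 6 of the 12 libraries of the series, 3 a side, taken by tumour and gate from the sample labels. Both groups came from wild type C57BL/6J mice, and both were sorted as DAPI- CD45.2+ CD8+ asGM1- cells, so no T cell receptor chain was part of the gate. One group came from tumours of Panc02, a mouse pancreatic cancer cell line, and the other from tumours of Flt3L-expressing Panc02. The other 6 libraries are the asGM1+ cells of the same tumour types and serve here only to share an estimate of the spread and to test where the gates differed. The sources used here give neither the form of Flt3L nor the age of the mice or the time of harvest. Whether the replicates are separate animals is not stated in the labels, and p-values then measure the spread between these libraries only, which may be technical.

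Flt3L is the ligand of the receptor tyrosine kinase Flt3 and drives the growth of dendritic cells from their progenitors, plasmacytoid dendritic cells included. Conventional dendritic cells that carry CD8 alpha take up tumour antigen and present it to CD8+ T cells, which then divide, release granzymes and perforin, and become effector, memory or exhausted cells. In mice asGM1 is carried by NK cells and by a share of activated CD8+ T cells. Some mouse dendritic cells, plasmacytoid ones among them, carry CD8 alpha, so a CD8+ gate can admit them.

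RNA was measured as estimated counts per gene, with totals between 98663008 and 102325680 counts in the 6 libraries. The low values ran in steps of about 2.69 counts, taken as the worth of 1 sequenced fragment, so a floor of 3 fragments is 0.0794 CPM (counts scaled to library size). That floor covers counting error only. Libraries of 1 group had rank correlations across genes of 0.976 to 0.984, and libraries of different tumour types 0.965 to 0.972. Of 20411 genes tested by edgeR, 756 (3.7%) passed a Benjamini-Hochberg adjusted p under 0.05 and are named "called" below, 380 (1.86%) higher and 376 (1.84%) lower in Flt3L Panc02. The 6 libraries separated by tumour without overlap at 5439 genes (26.6%; 13.8% upward and 12.9% downward), among them the 756 called, and 4137 genes had an unadjusted p under 0.05. The median log2 fold change of all genes was 0.0016, and 389 of the called genes changed more than 2-fold. The number called was 400, 94 and 170 without Panc02 replicate 1, 2 or 3 and 959, 121 and 298 without Flt3L Panc02 replicate 1, 2 or 3, with no call reversed in any of these runs. Values below are given in the order of replicates 1, 2 and 3, fold changes are log2 of Flt3L Panc02 over Panc02 with their standard error (SE), and n is 3 against 3 throughout. As alternatives, DESeq2 called 1049 of the 20411 genes higher and 1167 lower, and limma-voom 1838 higher and 1698 lower. List counts by these tools, or at an unadjusted p under 0.05, stand against those totals and the 4137 genes.

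**Figure D1:**
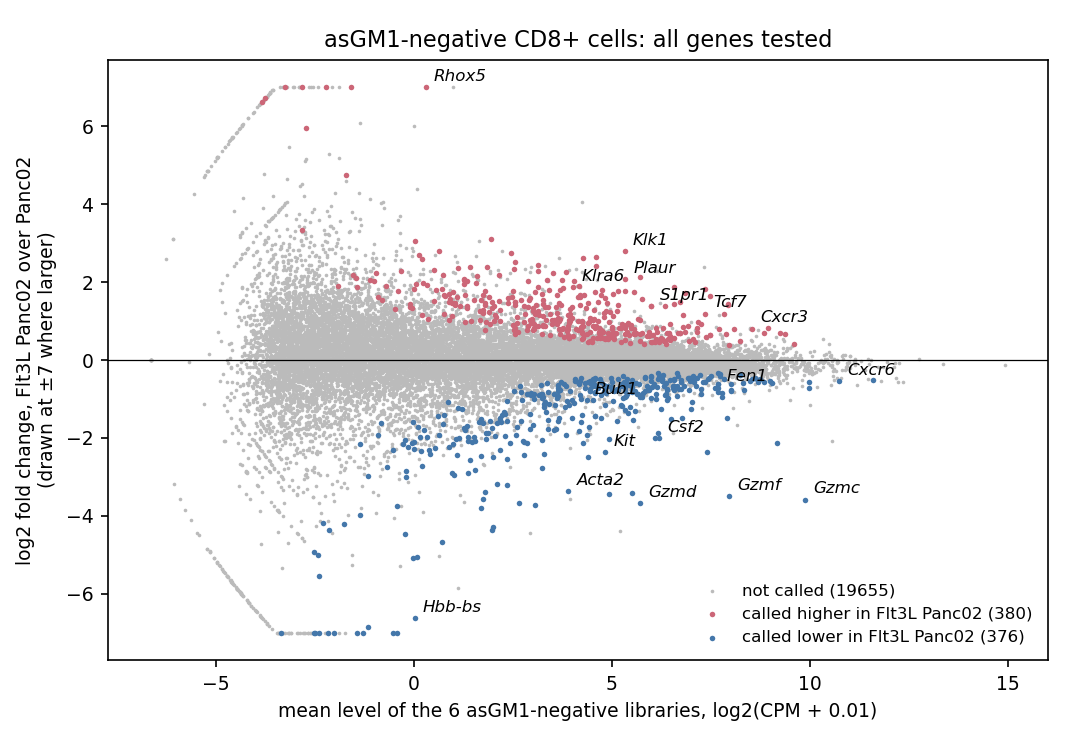
Log2 fold change (y axis) of all 20411 genes tested against their mean level in the 6 asGM1-negative libraries (x axis, log2 of CPM + 0.01), each point a gene. The 380 genes called higher and the 376 called lower are coloured, and values beyond 7 are drawn at the edge. Granzymes C, D and F lie low at high expression, while Klra6, S1pr1 and Klk1 lie high.

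No gene on the list of the T cell receptor complex and its signalling was called, where 3.7% of all genes were. Gamma chain segments of the receptor, which are on another list, were called higher and are described below. Of 24 genes of the receptor complex and its signalling, 0 were called by edgeR, DESeq2 or limma-voom, and 2 were higher and 2 lower at an unadjusted p under 0.05, with a median log2 fold change of 0.00. The number called was also 0 in each run that left out 1 library. Cd8a, the alpha chain of the CD8 coreceptor, stood at 1812, 2095 and 2324 CPM in the Panc02 libraries and 2131, 1569 and 1910.0 CPM in the Flt3L Panc02 libraries. Those ranges overlapped, with a log2 fold change of -0.15 ± 0.13 (edgeR adjusted p = 0.583). Trac, the constant segment of the T cell receptor alpha chain, was at 0.14 ± 0.14 and Cd3e, a chain of the receptor complex, at 0.05 ± 0.17. Flt3l transcripts of the sorted cells stood at 72.2, 77.2 and 83.00 CPM in the Panc02 libraries and 90.5, 98.99 and 81.2 CPM in the Flt3L Panc02 libraries, and were not called. Flt3, the receptor, stood at 9.42, 6.90 and 5.53 CPM in the Panc02 libraries and 25.3, 30.8 and 25.8 CPM in the Flt3L Panc02 libraries. Its groups did not overlap, at a log2 fold change of 1.91 ± 0.53 that missed the threshold (edgeR adjusted p = 0.0703). Flt3 is a gene of dendritic cells and progenitors, and 24 genes of plasmacytoid dendritic cells summed to 2148, 2569 and 2352 CPM in Panc02 and 4276, 3486 and 3620.0 CPM in Flt3L Panc02. That list holds genes that T cells also express, Bst2 and Irf8 among them. Over 27 macrophage and monocyte genes the sums were 4330.0, 3680.0 and 3139 CPM and 2839, 2685 and 3137 CPM, where the groups nearly met. These sums moved with the tumour type beside every gene group described here, and their part in the T cell gene groups was not tested.

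Ly49 receptors, the Klra genes, are C-type lectins that bind MHC class I, most of them inhibitory, on NK cells and on some memory CD8+ T cells. Of 13 members listed, 12 passed the filter, and of these 4 were higher, 1 lower and 7 not called, with a median log2 fold change of 1.59 against 0.0016 for all genes. Klra6 stood at 5.96, 6.86 and 7.98 CPM in the Panc02 libraries and 28.98, 26.8 and 20.2 CPM in the Flt3L Panc02 libraries. Every Flt3L Panc02 library lay above every Panc02 library, a log2 fold change of 1.87 ± 0.17 or 3.65-fold (edgeR adjusted p = 0.0015). Klra7, which encodes the inhibitory receptor Ly49G, stood at 16.9, 17.7 and 13.8 CPM in the Panc02 libraries and 57.7, 60.5 and 47.7 CPM in the Flt3L Panc02 libraries. It rose by 1.78 ± 0.19 (edgeR adjusted p = 0.00254), again without overlap. Klra1, the gene of Ly49A, stood at 6.03, 6.94 and 7.33 CPM in the Panc02 libraries and 23.2, 17.3 and 15.5 CPM in the Flt3L Panc02 libraries, a rise of 1.46 ± 0.18. Klra9, the gene of Ly49I, stood at 2.84, 4.32 and 4.24 CPM in the Panc02 libraries and 15.5, 13.2 and 12.8 CPM in the Flt3L Panc02 libraries, a rise of 1.86 ± 0.27. All 4 stayed called in each of the 16 settings tried, the 6 that left out 1 library among them.

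Ly49 genes did not all move in 1 direction. Klra2, the gene of Ly49B, which is known from myeloid cells, fell from 2.31, 1.83 and 1.42 to 0.597, 0.472 and 0.52 CPM, a log2 fold change of -1.81 ± 0.38. That call ended in 5 of the 6 runs that left out 1 library, all but the one without Flt3L Panc02 replicate 1, with an adjusted p of up to 0.128. Klra5, the gene of Ly49E, stood at 7.65, 32.6 and 36.4 CPM in the Panc02 libraries and 9.47, 1.81 and 4.62 CPM in the Flt3L Panc02 libraries, and its groups overlapped through the libraries numbered 1. Klra3, the gene of Ly49C, stood at 5.09, 7.37 and 6.70 CPM in the Panc02 libraries and 17.6, 14.1 and 10.7 CPM in the Flt3L Panc02 libraries, without overlap and not called (edgeR adjusted p = 0.0974). Klra17, the gene of Ly49Q of plasmacytoid dendritic cells, stood at 3.18, 1.70 and 2.02 CPM in the Panc02 libraries and 11.7, 12.6 and 10.8 CPM in the Flt3L Panc02 libraries, also apart and not called (edgeR adjusted p = 0.146). The activating receptor genes Klra4 and Klra8 lay under 1 CPM in every library. Klra10 was at 0 in the Panc02 libraries and at no more than 0.296 CPM in any other, and the pseudogene Klra13-ps stood at 0.631, 0.818 and 0.658 CPM in the Panc02 libraries and 2.75, 2.88 and 1.34 CPM in the Flt3L Panc02 libraries, apart and not called. Ncr1, a defining gene of NK cells, lay between 0.101 and 0.529 CPM in the 6 libraries, and the median log2 fold change of 18 NK cell genes was 0.01, with 2 higher (Klra9 and Tyrobp), 1 lower (Kit) and 15 not called. Klra genes are close copies of each other, so the share of reads counted to each is uncertain.

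The bases before starts of Klra6, Klra9 and Klra7, which rose, are shown because these windows hold a match of the core marked below. Klra1 rose too, and its window, without a match, is not shown. They are RefSeq windows of GRCm38.p6, a build other than that of the counts, each 200 bases on the minus strand of chromosome 6, written 5′ to 3′ up to the start. Capitals mark matches of CTTTGNT, the core that TCF and LEF factors recognise, searched on both strands. Klra6 lies at chr6:130026955-130027154, Klra9 at chr6:130193113-130193312, and Klra7 at the second of its annotated starts at chr6:130233323-130233522.
Klra6: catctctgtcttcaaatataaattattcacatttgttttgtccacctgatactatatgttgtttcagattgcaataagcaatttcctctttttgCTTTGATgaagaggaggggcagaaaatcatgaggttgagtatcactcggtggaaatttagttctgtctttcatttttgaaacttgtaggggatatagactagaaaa
Klra9: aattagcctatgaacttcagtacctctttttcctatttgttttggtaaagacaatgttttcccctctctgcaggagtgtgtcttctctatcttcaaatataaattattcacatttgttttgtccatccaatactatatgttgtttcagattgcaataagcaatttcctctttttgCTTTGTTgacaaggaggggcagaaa
Klra7: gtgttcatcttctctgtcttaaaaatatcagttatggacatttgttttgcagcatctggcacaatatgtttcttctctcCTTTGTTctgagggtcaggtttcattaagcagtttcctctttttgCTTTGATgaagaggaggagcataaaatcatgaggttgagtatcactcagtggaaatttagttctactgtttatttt
A match of that core was present in 12.6% of 32851 promoter windows of this length. Klra6 and Klra9 shared an identical run of 51 bases that reaches into their match, and Klra6 and Klra7 one of 30 bases that spans it. The window of Klra1 and that of the other Klra7 start held none, nor did those of Klra3, Klra4, Klra5, Klra8 and Klra10. Klra2 and Klra17 held 1 each. A match is a string of letters and not evidence of binding. Tcf7 and Lef1, which encode such factors, are described with the naive and stem-like genes.

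Granzymes C to F, serine proteases of a cluster on chromosome 14 that strongly stimulated killer cells release, fell. Of 5 measured members of granzymes C to N, 4 were lower, 0 higher and 1 not called, with a median log2 fold change of -3.58. Gzmc stood at 947, 2413 and 1847 CPM in the Panc02 libraries and 276, 37.02 and 121 CPM in the Flt3L Panc02 libraries. The highest Flt3L Panc02 library lay under the lowest Panc02 library, a log2 fold change of -3.58 ± 0.74 or about 12-fold lower (edgeR adjusted p = 0.0257). Gzmf stood at 152, 644 and 562 CPM in the Panc02 libraries and 68.2, 7.64 and 45.2 CPM in the Flt3L Panc02 libraries, a log2 fold change of -3.49 ± 0.80 (edgeR adjusted p = 0.0387). Gzmd stood at 27.1, 138 and 124 CPM in the Panc02 libraries and 10.8, 4.40 and 7.48 CPM in the Flt3L Panc02 libraries, a log2 fold change of -3.67 ± 0.75. In each of these genes Panc02 replicate 1 was the lowest of its group and Flt3L Panc02 replicate 1 the highest of its own. Gzme showed the same order, at -3.41 ± 0.77. Gzmg, at -4.44 ± 1.34, lay apart without passing (edgeR adjusted p = 0.09).

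The granzyme calls rested on few libraries. All 4 remained without Panc02 or Flt3L Panc02 replicate 1, and all 4 ended without Panc02 replicate 2, Panc02 replicate 3, Flt3L Panc02 replicate 2 or Flt3L Panc02 replicate 3, where the adjusted p of Gzmc was 0.0949, 0.068, 0.0777 and 0.0909. With the replicate number as a block, 2 of the 4 remained called. Gzmb, the main granzyme of killer T cells, stood at 868, 3496 and 2880.0 CPM in the Panc02 libraries and 906, 262 and 556 CPM in the Flt3L Panc02 libraries. The groups overlapped, at a log2 fold change of -2.07 ± 0.57 (edgeR adjusted p = 0.0682). Prf1, the pore former perforin, was at -1.02 ± 0.39 and Ifng, the gene of interferon gamma, at -0.82 ± 0.37, neither of them called. Of 18 killing genes shared by effector cells, 0 were called by edgeR, 1 was higher and 5 lower at an unadjusted p under 0.05, and the median was -0.31. DESeq2 called 2 of them lower and limma-voom 4, and edgeR called 1 lower without Panc02 or Flt3L Panc02 replicate 1. Over all 20411 genes DESeq2 and limma-voom called 1167 and 1698 lower.

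**Figure D2:**
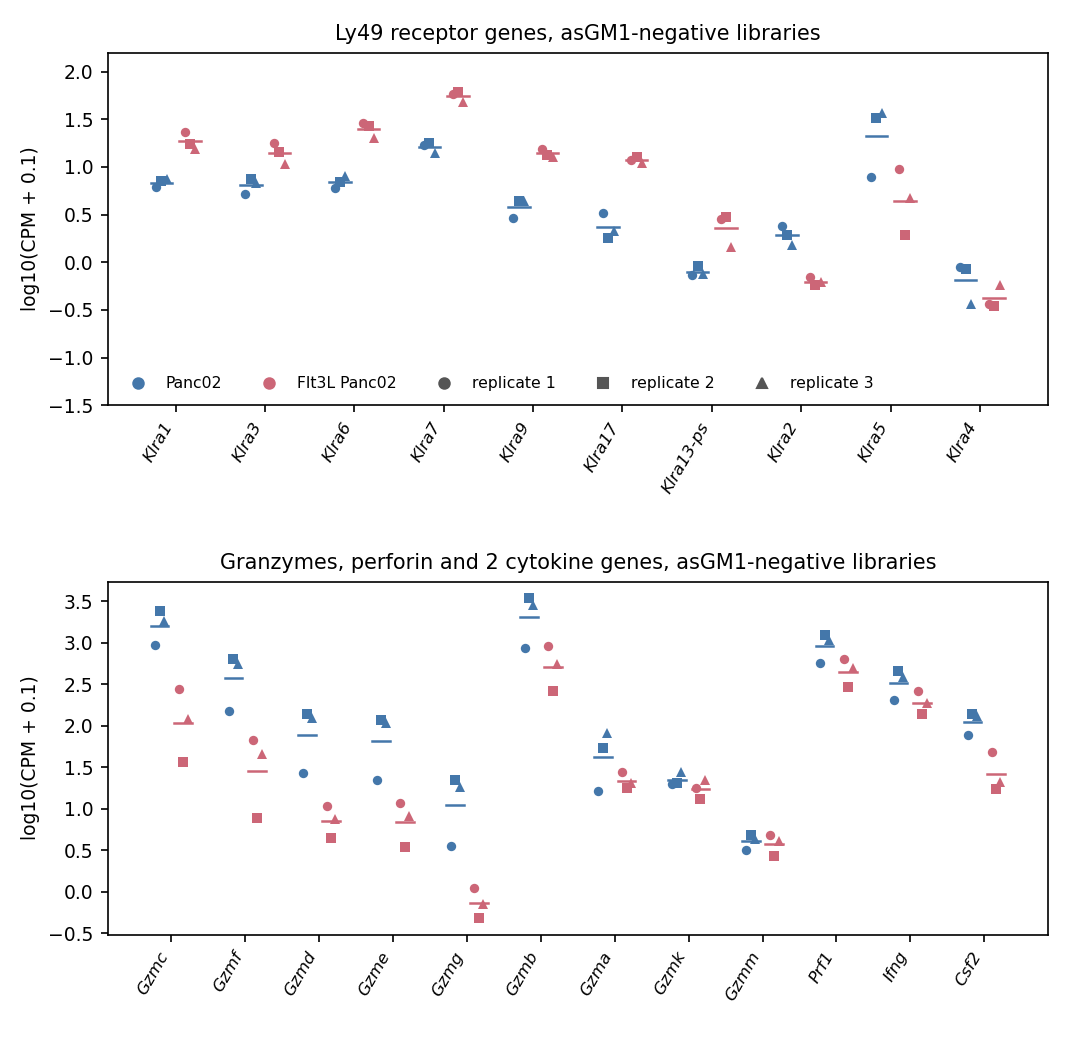
Levels of Ly49 genes (upper panel) and of granzymes, perforin, Ifng and Csf2 (lower panel) in the 6 asGM1-negative libraries, as log10 of CPM + 0.1, each point a library, shaped by replicate number, and each bar the mean of 3 such log values. Klra1, Klra6, Klra7 and Klra9 separate upward, while granzymes C to F separate downward with wide spread inside each group.

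The windows before granzymes C, D and F are shown because these genes fell together and lie in 1 cluster. They are RefSeq windows of GRCm38.p6, each 200 bases on the minus strand, 5′ to 3′ up to the start, with capitals for matches of TGTGGT, the core that RUNX factors recognise, on either strand (read from the other strand it is ACCACA). Gzmc lies at chr14:56234658-56234857, Gzmd at chr14:56132594-56132793 and Gzmf at chr14:56211408-56211607.
Gzmc: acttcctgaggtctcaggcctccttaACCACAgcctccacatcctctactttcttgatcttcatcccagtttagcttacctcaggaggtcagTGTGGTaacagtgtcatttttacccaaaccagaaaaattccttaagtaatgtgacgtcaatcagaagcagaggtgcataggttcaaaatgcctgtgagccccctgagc
Gzmd: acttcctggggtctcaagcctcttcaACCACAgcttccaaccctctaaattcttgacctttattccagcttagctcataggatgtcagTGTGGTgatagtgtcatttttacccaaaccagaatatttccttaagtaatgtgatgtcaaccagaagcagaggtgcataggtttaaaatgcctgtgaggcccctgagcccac
Gzmf: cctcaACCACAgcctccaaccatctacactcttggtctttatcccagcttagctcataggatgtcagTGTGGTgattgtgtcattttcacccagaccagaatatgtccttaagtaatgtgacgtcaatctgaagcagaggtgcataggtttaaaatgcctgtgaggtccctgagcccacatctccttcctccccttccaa
Each of these windows held 2 matches, as did those of Gzme, Gzmg and Gzmb, while that of Gzmn held 0 and 11.2% of all windows held any. The Gzmd and Gzme windows were 94.0% identical, and Gzmc and Gzmf 67.6%. No TGANTCA, the AP-1 core that 5.5% of windows hold, was found in the windows of granzymes C to F, and Gzmb held 1. These identities are of bases before the start and not of transcripts. The transcripts were not compared, so how far these granzymes share reads was not tested and the split of counts among them is uncertain.

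Cell division genes were lower. Of 38 genes of DNA replication and the G1/S step, 12 were lower, 0 higher and 26 not called, with a median log2 fold change of -0.53. Of 38 genes of mitosis and G2/M, 19 were lower, 0 higher and 19 not called, with a median of -0.63. The log2 fold change was negative for 37 and 38 of them, and 30 and 33 lay apart downward, against 12.9% of all genes. Fen1, a flap endonuclease of lagging strand synthesis, stood at 256, 252 and 259.5 CPM in the Panc02 libraries and 156, 155 and 159 CPM in the Flt3L Panc02 libraries. The spread inside each group was small beside the gap, a log2 fold change of -0.71 ± 0.12 (edgeR adjusted p = 0.0115). Rrm1, the large subunit of ribonucleotide reductase, fell by a log2 fold change of -0.80 ± 0.14, and Uhrf1, which keeps DNA methylation through replication, by -0.71 ± 0.12. The calls of Fen1 and Rrm1 ended without Panc02 replicate 2 and Flt3L Panc02 replicate 2, and that of Uhrf1 without the latter, with adjusted p-values of 0.057 to 0.0686.

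Bub1, a kinase of the spindle checkpoint, stood at 29.5, 26.7 and 26.5 CPM in the Panc02 libraries and 13.02, 14.2 and 13.2 CPM in the Flt3L Panc02 libraries. That is 2.05-fold lower without overlap, a log2 fold change of -1.03 ± 0.11 (edgeR adjusted p = 0.00254). Ccnb1, cyclin B1, fell from 139.9, 137 and 129 to 92.7, 73.7 and 74.3 CPM and Hmmr, a spindle protein, by a log2 fold change of -0.74 ± 0.10. Plk1, a mitotic kinase, was at -0.68 ± 0.11, a call that ended without Flt3L Panc02 replicate 2 (adjusted p = 0.057). Mki67, the common marker of cycling cells, stood at 138, 138 and 141 CPM in the Panc02 libraries and 127, 119 and 96.1 CPM in the Flt3L Panc02 libraries. It lay lower in each Flt3L Panc02 library but was not called, at -0.28 ± 0.14 (edgeR adjusted p = 0.301). Bub1, Hmmr and Ccnb1 stayed called in all 6 runs that left out 1 library. The counts depended on the libraries, with 3, 1 and 3 replication genes and 11, 5 and 8 mitosis genes called lower without Panc02 replicates 1, 2 and 3. They were 22, 0 and 3 and 23, 4 and 8 without Flt3L Panc02 replicates 1, 2 and 3.

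Other lists tied to division gave 0 or 1 call each by edgeR, where 3.7% of all genes were called. Of 13 cell cycle brakes and D cyclins, 1 was higher and 0 lower. That gene was Btg1, an antiproliferative gene of resting lymphocytes, which stood at 463, 544 and 522 CPM in the Panc02 libraries and 673, 857 and 886 CPM in the Flt3L Panc02 libraries. It rose by 0.66 ± 0.16 without overlap (edgeR adjusted p = 0.0446), a call that held without Flt3L Panc02 replicate 1 and ended in the other 5 runs. Of 62 histone genes that are made with replication or listed with them, 1 was lower, the linker histone H1f0, at -1.02 ± 0.13, and the median was -0.50. Summed, those 62 genes stood at 723, 812 and 956 CPM in Panc02 and 696, 401 and 432 CPM in Flt3L Panc02, without overlap and with Flt3L Panc02 replicate 1 nearest to Panc02. Without Flt3L Panc02 replicate 1, 14 of them were called lower, and DESeq2 and limma-voom called 11 and 24. Of 29 glycolysis and hypoxia genes, 0 were called by edgeR, 12 were lower and 0 higher at an unadjusted p under 0.05, and the median was -0.47, with 6 called lower by DESeq2 and 12 by limma-voom. Of 22 cholesterol synthesis genes, 0 were called by edgeR, 11 were lower and 0 higher at an unadjusted p under 0.05, and the median was -0.38, with 6 called lower by DESeq2 and 11 by limma-voom. Without Flt3L Panc02 replicate 1 edgeR called 1 glycolysis and 3 cholesterol genes lower, and without Panc02 replicate 1 it called 1 glycolysis gene.

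Genes of naive, central memory and stem-like T cells were higher. Of 28 measured, 10 were higher (among them Bcl2, Cd27, Foxp1, Klf2, Klf3, Lef1, Nsg2, S1pr1 and Tcf7), 0 lower and 18 not called, with 27 positive log2 fold changes, 19 genes apart upward against 13.8% of all genes, and a median of 0.62. S1pr1, the receptor by which T cells leave tissues, stood at 41.7, 32.4 and 32.3 CPM in the Panc02 libraries and 69.8, 114 and 92.3 CPM in the Flt3L Panc02 libraries, a rise of 1.38 ± 0.21 (edgeR adjusted p = 0.00844). Klf2, a transcription factor that drives S1pr1, stood at 23.6, 22.2 and 19.5 CPM in the Panc02 libraries and 43.7, 106 and 69.7 CPM in the Flt3L Panc02 libraries, a rise of 1.75 ± 0.27. Both separated by tumour without overlap, and Klf2 varied more widely among the Flt3L Panc02 libraries.

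Tcf7, the gene of TCF-1, a factor of naive, memory and stem-like exhausted cells, stood at 117, 98.2 and 81.02 CPM in the Panc02 libraries and 165, 279.8 and 231 CPM in the Flt3L Panc02 libraries, a rise of 1.19 ± 0.23 (edgeR adjusted p = 0.0204). Lef1, its relative, stood at 27.3, 37.1 and 34.2 CPM in the Panc02 libraries and 69.03, 75.2 and 59.9 CPM in the Flt3L Panc02 libraries, a rise of 1.05 ± 0.17. Bcl2, an inhibitor of cell death, rose by 0.82 ± 0.12. Ccr7, the chemokine receptor of lymph node entry, stood at 301, 272 and 332 CPM in the Panc02 libraries and 483, 551 and 517 CPM in the Flt3L Panc02 libraries and lay apart, at 0.78 ± 0.20, just short of the threshold (edgeR adjusted p = 0.0571). Slamf6, a receptor of stem-like exhausted cells, was at 0.83 ± 0.22 (edgeR adjusted p = 0.0582), and Il7r, the receptor chain for IL-7, at 0.45 ± 0.17, not called. The number of list members called higher was 6, 1 and 4 without Panc02 replicates 1, 2 and 3 and 12, 3 and 5 without Flt3L Panc02 replicates 1, 2 and 3. The calls of Bcl2, S1pr1 and Klf2 ended only without Panc02 replicate 2, with adjusted p-values of 0.0517 to 0.0537, and that of Lef1 only without Flt3L Panc02 replicate 2, with 0.0536. That of Tcf7 ended without Panc02 replicates 2 and 3 and Flt3L Panc02 replicates 2 and 3. Plasmacytoid dendritic cell genes, summed above, rose in the same libraries, and their part in these values was not tested.

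**Figure D3:**
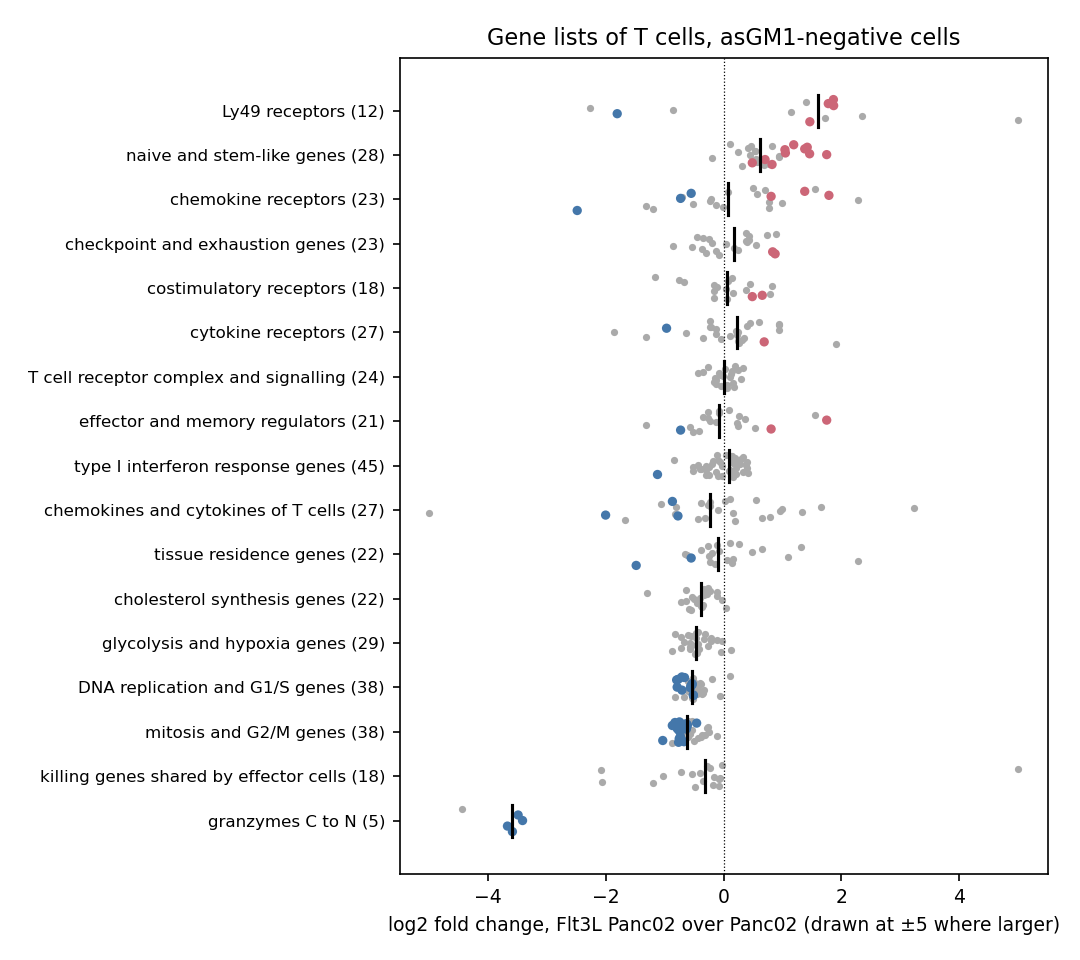
Log2 fold changes (x axis) of the members of 17 lists of T cell genes in asGM1-negative cells, each point a gene, with the number measured beside the name. Red points were called higher, blue points lower, grey points were not called, and the black bar is the list's median. Division lists lie to the left with 31 called, naive and stem-like genes to the right with 10, and the T cell receptor list around 0 with none.

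Receptors for movement changed in both directions. Of 23 chemokine and egress receptors measured, 3 were higher, 3 lower and 17 not called, with a median of 0.07. Besides S1pr1, Cxcr3, which guides effector cells and plasmacytoid dendritic cells along interferon-induced chemokines, stood at 287, 236 and 286 CPM in the Panc02 libraries and 457, 489.8 and 468 CPM in the Flt3L Panc02 libraries. It rose by 0.81 ± 0.18 without overlap (edgeR adjusted p = 0.034). Cxcr4, the receptor of Cxcl12, stood at 7.56, 5.61 and 4.08 CPM in the Panc02 libraries and 12.6, 25.97 and 21.1 CPM in the Flt3L Panc02 libraries, a rise of 1.79 ± 0.30. Cx3cr1, the fractalkine receptor of effector memory cells, stood at 124, 115 and 111 CPM in the Panc02 libraries and 68.2, 68.3 and 74.2 CPM in the Flt3L Panc02 libraries. It fell, at -0.73 ± 0.14, with the highest Flt3L Panc02 library well under the lowest Panc02 library. Cxcr6, the receptor of Cxcl16, stood at 1700.0, 2126 and 2196 CPM in the Panc02 libraries and 1525, 1157 and 1429 CPM in the Flt3L Panc02 libraries, a log2 fold change of -0.55 ± 0.12. Ackr3, a scavenging chemokine receptor, fell from 8.55, 5.67 and 6.01 to 1.63, 1.22 and 0.765 CPM.

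Adhesion genes also moved. Adgrg1, an adhesion receptor of cytotoxic lymphocytes, stood at 40.5, 38.3 and 38.8 CPM in the Panc02 libraries and 11.04, 17.7 and 13.3 CPM in the Flt3L Panc02 libraries. It fell by a log2 fold change of -1.48 ± 0.17 (edgeR adjusted p = 0.00377) and stayed called in all 6 runs that left out 1 library. Itga4, the integrin alpha 4 chain, stood at 15.9, 8.29 and 8.74 CPM in the Panc02 libraries and 29.6, 47.1 and 34.2 CPM in the Flt3L Panc02 libraries, a rise of 1.75 ± 0.33. Itgae, the residence integrin chain CD103, stood at 227, 99.3 and 145 CPM in the Panc02 libraries and 67.9, 122 and 111 CPM in the Flt3L Panc02 libraries, an overlap. Of 22 tissue residence genes, 2 were lower (Adgrg1 and Cxcr6), 0 higher and 20 not called. The calls of Cxcr3, Cxcr4, Cx3cr1, Cxcr6, Ackr3 and Itga4 each ended without Panc02 replicate 2 and Flt3L Panc02 replicate 2, and their adjusted p-values reached 0.0675 to 0.138 over all settings.

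Signals sent and received gave calls in both directions, where 1.86% of all genes were called higher and 1.84% lower. Of 27 chemokine and cytokine genes of T cells, 3 were lower, 0 higher and 24 not called. Csf2, the gene of GM-CSF, stood at 77.8, 138 and 132 CPM in the Panc02 libraries and 48.2, 17.5 and 21.1 CPM in the Flt3L Panc02 libraries. It fell 4.01-fold without overlap, at -2.003 ± 0.41 (edgeR adjusted p = 0.0251), a call that ended without Panc02 replicates 2 and 3 and Flt3L Panc02 replicates 2 and 3 (adjusted p up to 0.111). Tnfsf11, the gene of RANKL, fell by a log2 fold change of -0.87 ± 0.12 and stayed called in all 6 such runs. Csf1, the macrophage growth factor, fell by a log2 fold change of -0.78 ± 0.18. Il2ra, the high-affinity chain of the IL-2 receptor, stood at 105, 129 and 108 CPM in the Panc02 libraries and 52.1, 57.4 and 64.95 CPM in the Flt3L Panc02 libraries, a log2 fold change of -0.97 ± 0.18. Ifnar2, a chain of the type I interferon receptor, rose by 0.69 ± 0.14. Of 45 type I interferon response genes 0 were higher, 1 lower (Ifi204, at -1.13 ± 0.23) and 44 not called, with a median of 0.09. Of 28 interferon gamma response genes, 1 was higher (Gbp8, at 0.48 ± 0.12) and 0 lower. The calls of Csf1, Il2ra, Ifnar2, Ifi204 and Gbp8 each ended without Panc02 replicates 2 and 3 and Flt3L Panc02 replicate 2. Without Panc02 replicate 1 those of Csf1, Ifi204 and Gbp8 ended, without Flt3L Panc02 replicate 1 that of Gbp8, and without Flt3L Panc02 replicate 3 those of Ifnar2 and Ifi204.

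Most checkpoint genes were not called. Of 23 checkpoint and exhaustion genes, 2 were higher, 0 lower and 21 not called, with a median of 0.17. Over all genes, 1.86% were called higher and 1.84% lower. Btla, an inhibitory receptor of lymphocytes, stood at 21.2, 13.8 and 15.8 CPM in the Panc02 libraries and 27.2, 32.2 and 33.9 CPM in the Flt3L Panc02 libraries, a rise of 0.87 ± 0.18. Cd200, a ligand of an inhibitory myeloid receptor, stood at 56.7, 50.7 and 61.6 CPM in the Panc02 libraries and 82.5, 101 and 118 CPM in the Flt3L Panc02 libraries, a rise of 0.83 ± 0.15. Both separated without overlap, and both calls ended without Panc02 replicate 2 and Flt3L Panc02 replicates 2 and 3, that of Btla also without Panc02 replicate 3. Pdcd1, the gene of PD-1, stood at 1689, 1946 and 2567 CPM in the Panc02 libraries and 1640.0, 1543 and 2044 CPM in the Flt3L Panc02 libraries. Its groups overlapped, at -0.25 ± 0.18 (edgeR adjusted p = 0.498). Havcr2, the gene of TIM-3, was at -0.86 ± 0.31 and Tox, a factor of exhaustion, at 0.73 ± 0.28, neither called. Of 18 costimulatory receptors, Cd28 (at 0.66 ± 0.16) and Cd27 (at 0.49 ± 0.11) were higher, and both calls ended in each of the 6 runs that left out 1 library.

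Most enzymes of asGM1 synthesis were not called in these asGM1-negative cells. Of 18 enzymes of asGM1 and its relatives, 2 were higher, 1 lower and 15 not called, where 3.7% of all genes were called. B4galnt1, the transferase that forms the asGM1 precursor, was at -0.14 ± 0.12 and B3galt4, which completes it, at 0.01 ± 0.16. St3gal1, a sialyltransferase, stood at 17.8, 19.1 and 19.4 CPM in the Panc02 libraries and 27.8, 27.3 and 27.7 CPM in the Flt3L Panc02 libraries. It rose by 0.56 ± 0.11 with little spread inside each group, and its call ended in 5 of 6 runs, all but the one without Flt3L Panc02 replicate 1. B3galnt1, a transferase of the globo series, rose by 1.98 ± 0.47 from a level under 1 CPM, a call that ended without each library in turn. A4galt, which starts the globo series, stood at 1.995, 0.907 and 1.17 CPM in the Panc02 libraries and at 0 in each Flt3L Panc02 library, at least 17.1-fold lower against the floor of 3 fragments per library.

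Genes of plasmacytoid dendritic cells, which make type I interferon, were higher in the same libraries. Of 24 such genes, 10 were higher, 0 lower and 14 not called, with a median log2 fold change of 1.63. Summed, they stood at 2148, 2569 and 2352 CPM in Panc02 and 4276, 3486 and 3620.0 CPM in Flt3L Panc02, a 1.61-fold rise of the mean. The sum includes genes that T cells also express, so it is not a level of this cell type alone. Siglech, a defining surface receptor, stood at 70.1, 40.4 and 43.00 CPM in the Panc02 libraries and 289.9, 262 and 253 CPM in the Flt3L Panc02 libraries. Its groups lay far apart at 5.24-fold, yet it was not called (edgeR adjusted p = 0.0685). An edgeR fit to the 6 asGM1-negative libraries alone gave 0.00371, and DESeq2 and limma-voom called it. Siglech stayed uncalled in each of the 6 edgeR runs that left out 1 library, with adjusted p-values of 0.0917 to 0.223. Upb1, an enzyme of pyrimidine breakdown, stood at 2.61, 2.15 and 3.45 CPM in the Panc02 libraries and 17.9, 13.5 and 13.5 CPM in the Flt3L Panc02 libraries, a rise of 2.45 ± 0.27 (edgeR adjusted p = 0.00281). Klk1, a kallikrein, stood at 12.2, 7.76 and 10.2 CPM in the Panc02 libraries and 88.8, 61.4 and 59.7 CPM in the Flt3L Panc02 libraries, a rise of 2.80 ± 0.68 whose call ended in each of the 6 runs that left out 1 library. Tcf4, the factor that sets this lineage, rose by 1.76 ± 0.37 and Ly6d by 1.86 ± 0.38. Bst2 and Irf8, which T cells also express, were not called, at 0.15 ± 0.15 and 0.02 ± 0.12. The number called was 7, 2 and 3 without Panc02 replicates 1, 2 and 3, 7, 2 and 4 without Flt3L Panc02 replicates 1, 2 and 3, and 15 with the 6 libraries alone. In bulk libraries more cells of a type and more RNA per cell cannot be told apart.

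Conventional dendritic cell genes rose in part. Of 20 measured, 3 were higher, 0 lower and 17 not called, with a median of 0.38. Itgax, the CD11c integrin chain, was the third, and without Panc02 replicate 2 or 3 or Flt3L Panc02 replicate 2 or 3 Clec10a was left alone. Clec10a, a galactose-binding lectin, stood at 13.7, 11.8 and 12.4 CPM in the Panc02 libraries and 48.2, 36.3 and 36.3 CPM in the Flt3L Panc02 libraries, a rise of 1.67 ± 0.19 that stayed called in all 6 runs that left out 1 library. Clec9a, a receptor for dead cells on cross-presenting dendritic cells, stood at 1.48, 1.24 and 0.88 CPM in the Panc02 libraries and 4.60, 5.65 and 4.01 CPM in the Flt3L Panc02 libraries, a rise of 1.99 ± 0.48 that ended in each of those runs. Xcr1, the other defining gene of these cells, stood at 3.64, 1.91 and 1.37 CPM in the Panc02 libraries and 3.12, 3.14 and 3.54 CPM in the Flt3L Panc02 libraries, an overlap at 0.50 ± 0.54. Summed, the list overlapped too, at 406, 262 and 279 CPM and 305, 354 and 330.0 CPM. Of 10 MHC class II genes, 0 were called by edgeR or DESeq2 and 1, higher, by limma-voom, which is also the number at an unadjusted p under 0.05.

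B cell, CD4 and gamma delta T cell genes were mixed. Of 15 B and plasma cell genes, 4 were higher (Cd79b, Ighm, Ighd and Blnk) and 0 lower. The defining B cell gene Cd79a lay at or under 0.269 CPM in every library, and Ms4a1 and Pax5 did not pass the filter. Ighm, the IgM heavy chain, stood at 412, 325 and 332 CPM in the Panc02 libraries and 582, 709.8 and 612 CPM in the Flt3L Panc02 libraries, a rise of 0.83 ± 0.19. None of the 4 was called without Panc02 replicate 2, Panc02 replicate 3 or Flt3L Panc02 replicate 3. Of 17 CD4 and regulatory T cell genes, 1 was higher (Cd4), 3 lower (Foxp3, Ikzf4 and Il2ra) and 13 not called, with a median of -0.10. Over all genes, 1.86% were called higher and 1.84% lower. Cd4, the coreceptor of helper T cells and also a gene of plasmacytoid dendritic cells, stood at 8.36, 8.37 and 6.06 CPM in the Panc02 libraries and 22.99, 32.2 and 29.1 CPM in the Flt3L Panc02 libraries. It rose 3.70-fold, at 1.89 ± 0.18 (edgeR adjusted p = 0.0015), and stayed called in all 6 runs that left out 1 library. Foxp3, the factor of regulatory T cells, stood at 64.2, 48.5 and 72.7 CPM in the Panc02 libraries and 18.2, 35.04 and 26.4 CPM in the Flt3L Panc02 libraries, a log2 fold change of -1.22 ± 0.29 (edgeR adjusted p = 0.0435) that ended in each of those runs. Ikzf4, which acts with Foxp3, fell by a log2 fold change of -1.11 ± 0.17 and stayed called in them. Of 14 gamma delta and type 17 T cell genes, 3 were higher, 0 lower and 11 not called, with a median of 0.84. Trgc1, Trgc2 and Trgc4, constant segments of the gamma chain, were higher, at 1.12 ± 0.20, 0.70 ± 0.17 and 1.46 ± 0.33, with Trdc, the delta chain, at 4.89, 4.12 and 5.41 CPM in the Panc02 libraries and 10.7, 15.4 and 12.1 CPM in the Flt3L Panc02 libraries and not called. None of the 3 was called without Panc02 replicate 2, Panc02 replicate 3 or Flt3L Panc02 replicate 2. Trgc segments are close copies, and their read split is uncertain.

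The called genes of the fibroblast, mast cell, red cell and macrophage lists were lower, and those of tumour epithelium were mixed. Kit, the receptor of mast cells and progenitors, stood at 56.7, 46.99 and 40.03 CPM in the Panc02 libraries and 6.67, 10.7 and 10.5 CPM in the Flt3L Panc02 libraries. It fell 5.15-fold, at -2.37 ± 0.26 (edgeR adjusted p = 0.00281), and stayed called in all 6 runs. Of 12 mast cell and basophil genes, 3 were lower (Kit, Cma1 and Mcpt8), and the list summed to 71.8, 63.5 and 48.2 CPM against 12.2, 15.4 and 14.3 CPM. Kit made up most of that sum in every library, so the sum largely repeats that gene. Of 18 fibroblast genes, 4 were lower (Col6a1, Dcn, Fbln1 and Lum), with a sum of 491, 398 and 354 CPM against 206, 241 and 297 CPM. Acta2, smooth muscle actin, stood at 36.2, 22.8 and 22.7 CPM in the Panc02 libraries and 2.39, 2.21 and 3.35 CPM in the Flt3L Panc02 libraries, a log2 fold change of -3.36 ± 0.48. Of 11 tumour epithelial genes, 1 was higher, 2 lower and 8 not called, with 7 positive log2 fold changes and a median of 0.16. Summed, they overlapped, at 246, 226 and 234.5 CPM against 227, 237.5 and 227 CPM. The keratin genes Krt8 and Krt18 fell by log2 fold changes of -1.92 ± 0.36 and -2.43 ± 0.37, while Epcam, an epithelial adhesion gene, rose by 1.04 ± 0.20. Krt18 stayed called in all 6 runs, while the calls of Krt8 and Epcam each ended without Panc02 replicate 2, Panc02 replicate 3 or Flt3L Panc02 replicate 2. Of 6 red cell genes, the 4 haemoglobin genes were lower, from a list sum of 7.37, 12.8 and 3.36 CPM to 0.173, 0.315 and 0.812 CPM. In asGM1-positive cells the haemoglobin genes Hbb-bs and Hbb-bt were not called, at log2 fold changes of 0.29 ± 0.57 and 0.09 ± 0.60, and for both the difference between gates was called (edgeR adjusted p = 0.0238 and 0.0323). Of 27 macrophage and monocyte genes, 2 were lower (Fn1 and Pf4), 25 not called and the median was -1.06. Without Panc02 replicates 1, 2 or 3 or Flt3L Panc02 replicates 2 or 3, edgeR called none of the fibroblast or macrophage genes, and without Panc02 or Flt3L Panc02 replicate 2 it called 1 mast cell and 2 red cell genes lower. Of 12 neutrophil genes edgeR called 0, with 1 higher and 5 lower at an unadjusted p under 0.05 and 5 and 4 lower by DESeq2 and limma-voom. Of 13 endothelial genes edgeR and DESeq2 called 0 and limma-voom 2 higher, with 1 higher at an unadjusted p under 0.05. Their direction was mostly upward, with 11 positive log2 fold changes and a median of 0.91. Summed, the endothelial genes overlapped, at 49.1, 30.7 and 30.5 CPM in Panc02 and 41.3, 53.4 and 72.9 CPM in Flt3L Panc02. Over all 20411 genes limma-voom called 1838 higher. The part of any of these transcripts in the T cell gene groups was not tested.

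**Figure D4:**
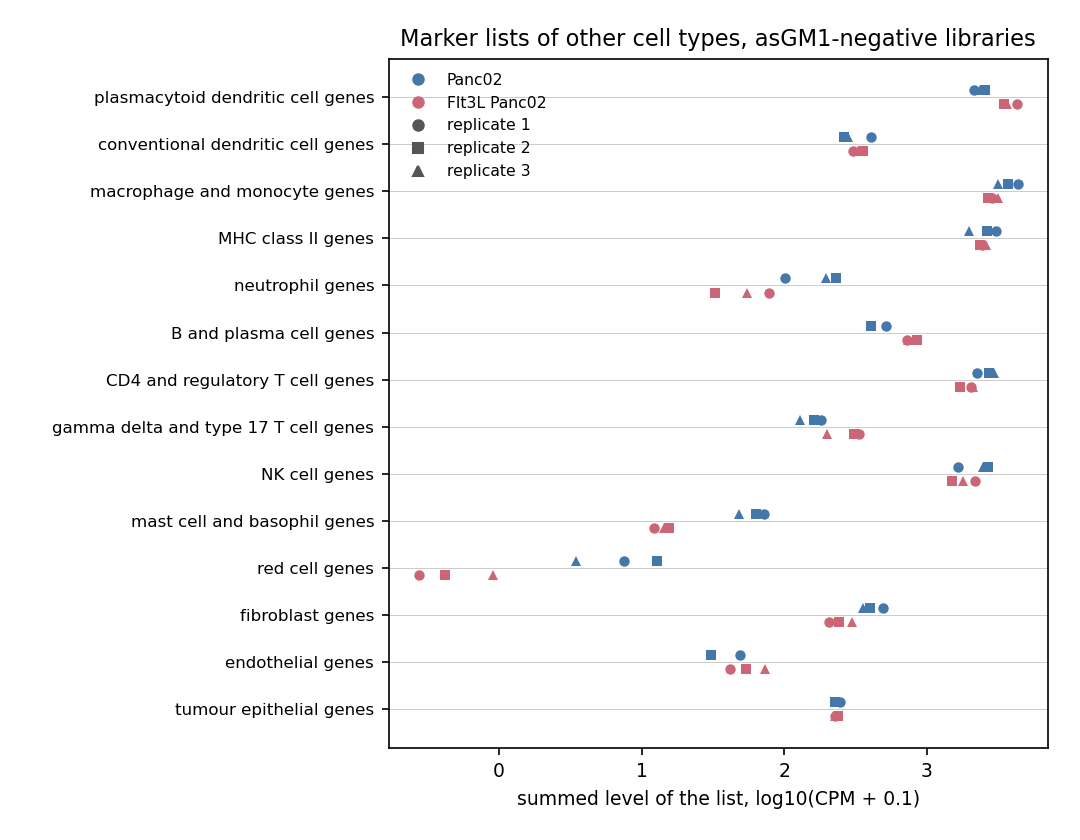
Summed level of 14 marker lists (x axis, log10 of summed CPM + 0.1) in each of the 6 asGM1-negative libraries, blue for Panc02 and red for Flt3L Panc02, shaped by replicate number. The red points of plasmacytoid dendritic cell genes and of B and plasma cell genes lie to the right of the blue ones, and those of mast cell, red cell and fibroblast genes to the left.

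Ranked by size among the called genes with a mean of 5 CPM or more, antigen receptor segments and unnamed gene models left out, Klk1 led the rises and Cavin2 the falls. Klk1, Cox6a2, Cd209d and Upb1 were in the plasmacytoid list. Hs3st1, a heparan sulfate sulfotransferase, rose by 2.75 ± 0.49, Gapt, an adaptor linked to B cells, by 2.33 ± 0.30, and Rnase6, a secreted ribonuclease, by 2.13 ± 0.26. Plaur, the urokinase receptor, stood at 17.7, 13.96 and 14.7 CPM in the Panc02 libraries and 68.1, 68.7 and 57.8 CPM in the Flt3L Panc02 libraries, a rise of 2.07 ± 0.23. D13Ertd608e, Paqr5, Lefty1 and Tbc1d8 rose too, with log2 fold changes of 2.28, 2.24, 2.06 and 2.05. The falls held granzymes C to F beside genes known from stroma. Cavin2, a caveolae protein, stood at 22.3, 13.7 and 10.7 CPM in the Panc02 libraries and 1.27, 0.629 and 1.63 CPM in the Flt3L Panc02 libraries, a log2 fold change of -3.72 ± 0.56. Dscam, a cell adhesion gene, fell by a log2 fold change of -3.67 ± 0.59, Dcn, the proteoglycan decorin, by -2.78 ± 0.65, and Bace2, an aspartic protease, by -2.48 ± 0.33. Ccdc184, Acta2, Olfml2b and Scin were the others, at -3.43, -3.36, -3.20 and -2.54. Klk1, Cox6a2, Paqr5 and Dcn lost their calls without each library in turn, and Upb1, Cd209d, Gapt, Rnase6, Plaur, Cavin2, Acta2 and Bace2 kept theirs in all 6 runs. The call of Dscam ended only without Flt3L Panc02 replicate 2, and that of D13Ertd608e only without Panc02 replicate 2. Lefty1 lost its call in 2 of the 6 runs and Hs3st1 in 3. Ccdc184, Scin and granzymes C to F lost theirs in 4, and Olfml2b and Tbc1d8 in 5. The run without Panc02 replicate 2 was among them for each of these genes but Dscam.

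The same tumour comparison in asGM1-positive cells, which shares no library with it, called 1276 genes (6.25%), 418 (2.05%) higher and 858 (4.2%) lower. Of the 756 genes called in asGM1-negative cells, 603 (79.8%) had the same sign there. Called in both gates were 258 genes, which is 34.1% of the asGM1-negative and 20.2% of the asGM1-positive calls. Among them 91 were higher in both, 148 lower in both and 19 opposite. Klra6 was at 1.84 ± 0.18 in asGM1-positive cells, Gzmc at -2.85 ± 0.71, S1pr1 at 1.57 ± 0.22 and Kit at -2.32 ± 0.26, and for none of these was the difference between gates called (edgeR adjusted p = 0.973, 0.75, 0.794 and 0.971). In asGM1-positive cells 0 of 38 replication and 6 of 38 mitosis genes were called lower, and the difference between gates was called for none of the 76, with an adjusted p of 0.127 for Bub1 by edgeR.

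The tumour effect itself differed between the gates at 75 genes (0.367%), 68 (0.333%) of them with a higher and 7 (0.0343%) with a lower log2 fold change in asGM1-negative cells. The number called ranged from 40 to 864 over the tools, filters and blocks tried. Plaur rose in asGM1-negative cells and stood at -1.37 ± 0.23 in asGM1-positive cells, a difference of 3.44 ± 0.33 (edgeR adjusted p = 0.00553). Slpi, an inhibitor of neutrophil proteases, differed by 2.85 ± 0.32 in the same sense, P2ry13, a nucleotide receptor, by 3.56 ± 0.48 and Kcnq1ot1, a long noncoding RNA, by 1.64 ± 0.22. Bcl2 differed by 1.17 ± 0.17, with 0.82 ± 0.12 against -0.35 ± 0.12 in the asGM1-positive gate (edgeR adjusted p = 0.0238). It was the only naive or stem-like gene of the 28 whose effect was called different, while 5 of the 24 plasmacytoid dendritic cell genes were. Of these, Lair1, Pld4, Tcf4 and Upb1 had the higher log2 fold change in asGM1-negative cells and Cd209d the lower. Cd209d was at 0 in each Panc02 asGM1-positive library and at 0.249, 0.439 and 0.355 CPM in the Flt3L Panc02 asGM1-positive libraries, so its difference has no stated size. Adap1, an Arf GTPase regulator, fell in asGM1-negative cells from 96.2, 113 and 109.8 to 48.7, 60.2 and 64.8 CPM and was at 0.43 ± 0.13 in the other gate, a difference of -1.30 ± 0.18. Cdkn2c, a brake on D cyclin kinases, and Anxa6, an annexin, differed in the same sense by -1.14 ± 0.19 and -0.86 ± 0.16, as did the haemoglobin genes above.

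**Figure D5:**
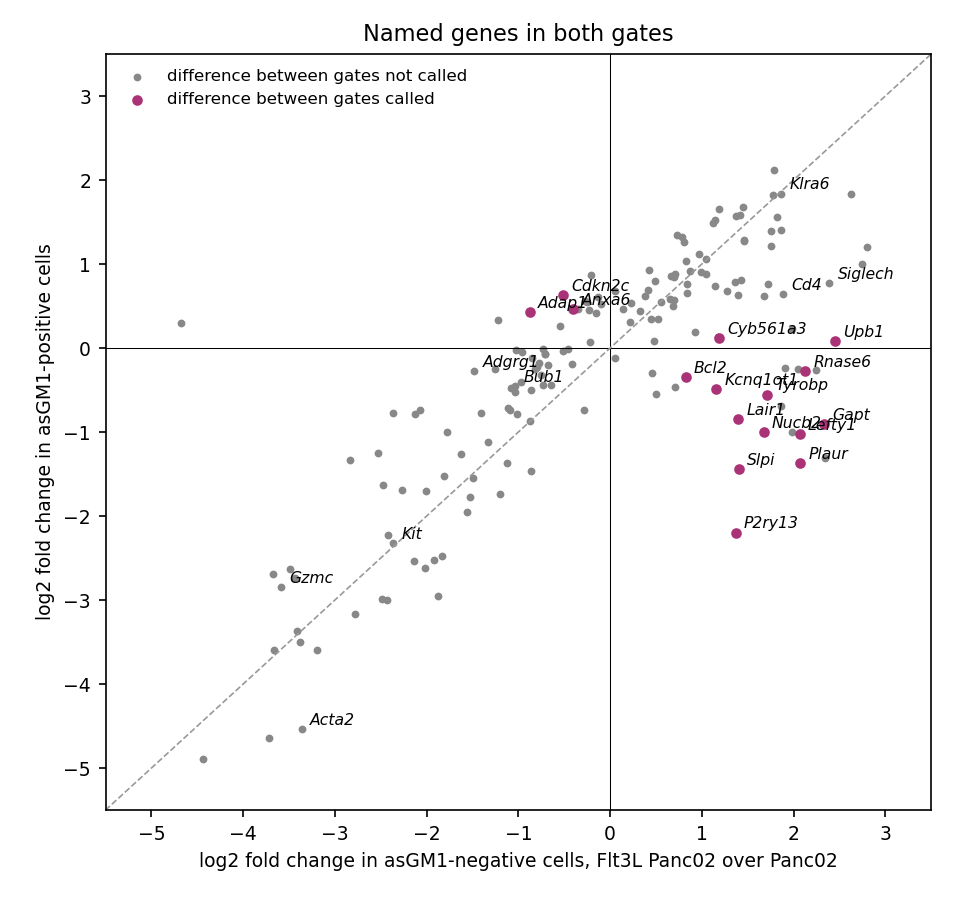
Log2 fold change of Flt3L Panc02 over Panc02 for the named genes in asGM1-negative (x axis) and asGM1-positive cells (y axis), each point a gene, with the line of equal effect dashed. Genes whose effect differed between the gates by edgeR are drawn larger in purple, and most of them lie below the line, among them Plaur, P2ry13 and Bcl2. Klra6 and Kit lie near the line.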

How the data were processed

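RNA of 12 sorted cell samples was sequenced, 3 in each of 4 groups by tumour and asGM1 gate. The authors deposited estimated counts per gene, made with HISAT2 and StringTie on mm39 per the submitters' processing notes. Neither tool versions nor the annotation release is given in the sources used here. Per the labels' protocols, RNA came from TRIzol, with a SMARTer ultra low input kit named beside a TruSeq mRNA kit. Strand use is not given, so reads of antisense or overlapping genes cannot be told apart.

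Of 56980 genes, 1542 had no symbol in the table and 11 of these were named from a reference table. Estimated counts were rounded and 20411 genes kept by filterByExpr. TMM factors and a quasi-likelihood fit of the 12 libraries with 4 group means followed, in edgeR 4.0.16 under R 4.3.3, with limma 3.58.1 and DESeq2 1.42.0 as alternatives. CPM use TMM-scaled libraries, and the SE is the absolute log2 fold change over the square root of the F statistic. Genes with an adjusted p (Benjamini-Hochberg over all tested genes) under 0.05 are called.

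Named genes were up to 12 per direction by size at 5 CPM or more and without overlap, by p the first 4 called members of each list, all Ly49 and granzyme C to N genes, a panel, and up to 5 per direction of the difference between gates. Other called list members are named without values. Some list members are not reported here. Gene lists and comparisons were chosen with earlier results of these data known. Results of the lists not in the report stand in the closing section. Promoter windows are RefSeq's for GRCm38.p6, and no coordinates came from the counts. Same-numbered libraries of the 2 tumour types were not treated as pairs, since the labels state no pairing. Their deviations from the group means correlated at -0.411, -0.315 and -0.316. With 3 libraries a group, that check cannot exclude a pairing. In data simulated for the main comparison with 19743 genes, 64, 64 and 65 genes were changed 1.5-fold, 2-fold and 4-fold. There edgeR recovered 0%, 40.6% and 55.4% of these, with 0% false among 62 calls. The rates hold for that setting, in which few genes changed. Alternatives were other scalings, filters and tools, the 6 libraries alone, a replicate block and leaving out each library.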

Additional observations from a re-analysis of the deposited data

Results flagged for a closer look

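The log2 fold change of Flt3L Panc02 over Panc02 differed between asGM1-negative and asGM1-positive cells at 16 named genes above the floor of 3 fragments in every group, by edgeR's test of the difference itself (adjusted p under 0.05). The difference, asGM1-negative minus asGM1-positive, was above 0 for 13 of them. It was 3.56 ± 0.48 for P2ry13, 3.44 ± 0.33 for Plaur, 3.23 ± 0.44 for Gapt, 3.09 ± 0.49 for Lefty1 and 2.85 ± 0.32 for Slpi. It was 2.67 ± 0.37 for Nucb2, 2.40 ± 0.37 for Rnase6, 2.36 ± 0.40 for Upb1, 2.27 ± 0.38 for Tyrobp and 2.24 ± 0.34 for Lair1. It was 1.64 ± 0.22 for Kcnq1ot1, 1.17 ± 0.17 for Bcl2 and 1.06 ± 0.16 for Cyb561a3, which was chosen after its values were seen. The difference was below 0 for Adap1, at -1.30 ± 0.18, for Cdkn2c, at -1.14 ± 0.19, and for Anxa6, at -0.86 ± 0.16. Cdkn2c and Anxa6 were not called in asGM1-negative cells, at log2 fold changes of -0.52 ± 0.13 and -0.40 ± 0.11. The difference was also called below 0 for Cd209d, Hbb-bs and Hbb-bt, each with 1 group at or under the floor, so that no size is given. Hbb-bs stood at 1.63, 3.36 and 0.971 CPM in the Panc02 and 0, 0 and 0.0567 CPM in the Flt3L Panc02 asGM1-negative libraries, against 4.90, 3.27 and 3.78 CPM and 3.87, 6.87 and 3.92 CPM in the asGM1-positive libraries.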

How the results depend on the processing

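With 3 libraries a side, the number of genes called depended on the tool, the filter and single libraries, and no call was reversed in any setting. Scaling by DESeq2 size factors gave 766 calls and by upper quartile 777, and the 6 libraries alone gave 836, of which 532 were among the 756. Without a filter on low counts 390 genes were called (195 higher, 195 lower), with 691 in asGM1-positive cells and 40 in the difference between gates. With at least 5 CPM in 3 libraries the difference had 137 calls. DESeq2 called 2216 (1049 higher, 1167 lower), 2984 in asGM1-positive cells and 864 in the difference. limma-voom with quality weights called 3536 (1838 higher, 1698 lower), 3120 and 786. Leaving out 1 library gave 94 to 959 calls, 43 to 439 higher and 51 to 520 lower. Without both libraries numbered 1, a setting chosen after seeing the data, 566 genes were lower and 1043 called in all. The cause of these shifts was not tested. With the replicate number as a block, which pairs nothing in the labels, 736 genes were called, 608 of them among the 756, 1490 in asGM1-positive cells and 135 in the difference. The 2 gates of 1 tumour type also share numbers, which the labels do not tie to a tumour. The deviations of same-numbered libraries from their group means correlated at -0.021 to 0.494, over 0.1 in 5 of 6 pairs, and 4 of 6 asGM1-negative libraries correlated best with their own number. With tumour and number as a replicate block across gates, a setting chosen after seeing the data, the difference was called at 204 genes (165 above and 39 below 0), 69 of them among the 75. The differences of Gzmb, Prf1 and Pdcd1, at -1.34, -0.978 and -0.791, were called then and not without the block. In DESeq2 47.3% and in limma-voom 52% of calls were higher, against 50.3% in edgeR. The difference between gates was not rerun with single libraries left out. In the simulation, with 64 genes changed 2-fold and 65 changed 4-fold among 19743, 40.6% and 55.4% of them were recovered. The data had 4137 of 20411 genes at an unadjusted p under 0.05. Recovery after adjustment depends on the share of genes that change, so these rates do not carry over to this comparison. The origin of the low counts' step is inferred from the values, and dividing counts by it gave 1033 calls.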

Other observations

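Genes in this part were chosen after their values were seen, apart from the list counts. Tsc22d3, the glucocorticoid-induced leucine zipper GILZ, stood at 76.1, 69.8 and 70.6 CPM in the Panc02 libraries and 182, 280.1 and 299.7 CPM in the Flt3L Panc02 libraries. It rose 3.52-fold without overlap (edgeR adjusted p = 0.00404) and stayed called without each library in turn. Cd7, a T cell surface receptor, stood at 149, 127 and 115 CPM in the Panc02 libraries and 337, 433 and 298 CPM in the Flt3L Panc02 libraries, a rise of 1.45 ± 0.16, and Plcxd2, a phospholipase-like gene, rose by 1.42 ± 0.13, both also called in all 6 such runs. Pik3ip1, an inhibitor of PI3 kinase, rose by 1.27 ± 0.20, a call that ended without Panc02 replicate 2 or 3. Of 8 Gimap genes, GTPases of lymphocyte survival, Gimap3, Gimap4, Gimap6 and Gimap7 were higher, at 0.69 ± 0.13, 0.42 ± 0.09, 0.71 ± 0.12 and 0.97 ± 0.16, and Gimap1, Gimap5, Gimap8 and Gimap9 were positive and not called. Without Panc02 replicate 2 none of these 4 was called.

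A further 8 genes, chosen in the same way, fell. Lmna, the nuclear lamin A/C gene, stood at 141, 179 and 209.6 CPM in the Panc02 libraries and 83.9, 75.4 and 90.9 CPM in the Flt3L Panc02 libraries, a fall of -1.08 ± 0.13 (edgeR adjusted p = 0.00404). Anxa1, annexin A1, stood at 123, 140.5 and 140.2 CPM in the Panc02 libraries and 55.5, 37.7 and 47.4 CPM in the Flt3L Panc02 libraries, a fall of -1.52 ± 0.23. Adam8, a sheddase, fell by a log2 fold change of -1.26 ± 0.18, Nfkb2, a subunit of the noncanonical NF-kB pathway, by -0.85 ± 0.12, and Fut7, a fucosyltransferase, by -0.96 ± 0.14. Hmox1 and Srxn1, genes of the oxidative stress response, fell by -1.78 ± 0.28 and -1.04 ± 0.16, and Tnfsf4, the ligand OX40L, by -1.34 ± 0.21. All 8 separated without overlap and stayed called without each library in turn. Ifitm1, Ifitm2 and Ifitm3, which encode antiviral membrane proteins, fell by log2 fold changes of -2.13 ± 0.50, -2.37 ± 0.39 and -1.495 ± 0.27. Ifitm1 ran from 304, 1316 and 1209 to 250.5, 162 and 234 CPM, with Panc02 replicate 1 near the Flt3L Panc02 libraries, and all 3 calls ended without Panc02 replicate 2 or Flt3L Panc02 replicate 2.

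Some called genes were at 0 in 1 group. Rhox5, a reproductive homeobox gene of the X chromosome that tumour cells often express, was at 0 in the Panc02 libraries and at 2.30, 2.73 and 2.29 CPM in the Flt3L Panc02 libraries, at least 30.7-fold higher against the floor of 3 fragments per library. Magea5, a cancer-testis antigen gene, was at 0 and at 1.03, 0.611 and 0.293 CPM, at least 8.11-fold higher. Prss22, a serine protease, was at 0.343, 0.349 and 0.303 CPM in Panc02 and 0 in Flt3L Panc02, at least 4.18-fold lower. The first 2 stayed called in all 6 runs that left out 1 library, and Prss22 ended without Panc02 replicate 2.

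The lists not described in the report gave the counts below, where 3.7% of all genes were called, 1.86% higher and 1.84% lower. Of 20 NKG2, CD94 and other NK receptor genes, Tyrobp, an adaptor of activating receptors, was higher at 1.71 ± 0.27 and Klrb1b lower at -1.40 ± 0.27. Of 25 early genes of receptor signalling, Zfp36, which destabilises cytokine messages, was higher at 0.70 ± 0.16. Of 21 effector and memory regulators, Cxcr3 and Itga4 were higher and Cx3cr1 lower. All of these calls ended without Panc02 replicate 2. Of 82 nuclear respiratory chain genes, Cox6a2, a muscle-type subunit also known from plasmacytoid dendritic cells, was the 1 call. edgeR called 0 of 17 heat shock chaperones, 0 of 87 cytosolic ribosomal protein genes and 0 of 29 mitochondrial genome transcripts, with 3, 1 and 1 at an unadjusted p under 0.05. DESeq2 also called 0 in these 3 lists, and limma-voom 2, 1 and 0.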
